A study of Mus musculus with 21 samples.

Results

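Double-positive thymocytes from OT-2 mice that carried HDAC7 deltaP and received agonist peptide were set against those of untreated OT-2 mice, 3 arrays each, which makes 6 of the 21 arrays of the series. The arrays were chosen by their sample titles, and the comparison asks which part of the transcriptional response to agonist peptide is seen when deltaP is present. All were Affymetrix Mouse Gene 1.0 ST arrays, and the RNA came from thymocytes sorted by flow cytometry for both CD4 and CD8, from C57 Bl/6 mice aged 3 to 6 weeks. The deltaP group carried the OT-2 T cell receptor transgene and the HDAC7 deltaP transgene and was harvested 3 hours after an intraperitoneal injection of the receptor's agonist peptide. Its genotype label names only OT-2, so the deltaP transgene rests on the titles and source names. The peptide group, another 3 arrays, had the OT-2 transgene and the same injection without deltaP. The OT-2 group had the receptor transgene and no injection. Side comparisons used 6 arrays titled wild-type and 3 titled HDAC7 knockout, also from mice aged 3 to 6 weeks. No deltaP arrays without peptide were analysed here, so in the comparison with OT-2 the effects of the injection and of the transgene cannot be told apart. The labels do not give the promoter of the deltaP transgene or how many founder lines were used.

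The double-positive stage is where a thymocyte tests its newly made T cell receptor. A weak signal from self-peptide rescues the cell and starts maturation, whereas a strong signal, as from injected agonist peptide, starts the program of negative selection that leads to death. The OT-2 receptor recognizes an ovalbumin peptide presented by an MHC class II molecule. HDAC7 is a class IIa histone deacetylase that is highly expressed in double-positive thymocytes, where it represses targets of MEF2 factors such as Nr4a1. Receptor signalling leads to its phosphorylation and export from the nucleus, and deltaP is known as a form that lacks the phosphorylation sites and stays nuclear.

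All values are log2 RMA signals, quantile-normalized over the 9 arrays of these 3 groups. Changes are differences of group means, and ± gives their standard error from limma, and adjusted p-values are limma's with Benjamini-Hochberg adjustment over 28921 probe sets. The design text calls the arrays biological replicates, and the p-values measure only the spread between these samples. A gene rose or fell when its adjusted p was under 0.05. Arrays of the deltaP group correlated with each other at r of 0.994 to 0.995 across probe sets, and the OT-2 arrays at 0.996. The deltaP and OT-2 arrays appear to have been normalized by the authors in separate groups of arrays. Deposited medians were 6.02 to 6.07 in deltaP and 6.17 to 6.21 in OT-2, so this block and the group cannot be told apart. The peptide arrays had medians of 6.23 to 6.26. As deposited, the lowest median was 6.02 in deltaP, 6.173549 in OT-2 and 6.233 in the peptide arrays, so the number of decimals differed between all 3 groups. Whether the peptide arrays shared a block with either group was not tested, so the same limit applies to their comparisons. Between the wild-type arrays 4 to 6 and 1 to 3, which share a label and also appear to have been normalized separately, 10609 probe sets (36.7%) passed the same test. Of the probe sets as deposited, 6.03% had the same value in at least 2 deltaP arrays, against 17.1% in the OT-2 arrays and 4.03% in the peptide arrays. Gene names were available for 2121 probe sets, all of them listed by the authors as changed in at least 1 of their comparisons, so the named members of each list were partly chosen on these samples.

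Between deltaP and OT-2, 2842 probe sets passed (9.83%), of which 1420 were higher (4.91%) and 1422 were lower (4.92%) in deltaP, and 8741 had an unadjusted p under 0.05. Changes of 1 or more on the log2 scale were seen in 82 of those that rose and 38 of those that fell. With the values as deposited 5489 passed, 1019 higher and 4470 lower with a median change of -0.11 over all probe sets, and with each array centred on its median 3230 passed, 2059 higher and 1171 lower. Leaving out 1 array gave 341 to 3005 calls. The count was 341 without OT-2 replicate 1, 415 without OT-2 replicate 2, 1725 without OT-2 replicate 3, 829 without deltaP replicate 2 and 603 without deltaP replicate 3. Of the 109 genes chosen for naming, 96 passed, and 41 of these also passed with each of the 6 arrays omitted in turn and under both other scalings. The arrays of the groups did not overlap for 36.4% of all probe sets. Of the 2121 named probe sets, from which all list members below come, 260 rose (12.3%) and 332 fell (15.7%) with deltaP, and the arrays did not overlap for 53.8%. Peptide alone against the same OT-2 arrays gave 3727 calls (12.9%), 1699 higher (5.87%) and 2028 lower (7.01%), and after centring each array 2043 higher and 4769 lower. With peptide alone 274 of the named probe sets rose (12.9%) and 311 fell (14.7%). The test of deltaP against peptide arrays gave 849 calls (2.94%), 443 higher (1.53%) and 406 lower (1.4%), with 612 higher and 3736 lower in the values as deposited and 3634 higher and 1016 lower after centring. Of the named probe sets 64 were higher (3.02%) and 139 lower (6.55%) in deltaP than in peptide arrays. These comparisons share arrays, so their values are given side by side for each gene.

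Nr4a1, the orphan nuclear receptor known as an effector of thymocyte death and a target of HDAC7 repression, had the largest difference between deltaP and peptide arrays among the genes described. It read 9.10, 7.89 and 8.31 in the deltaP arrays, 11.78, 11.67 and 12.19 in the peptide arrays and 8.38, 8.41 and 8.47 in OT-2. The deltaP arrays overlapped with OT-2 and lay below every peptide array. Its change was 0.01 ± 0.26 with deltaP (adjusted p = 0.978), 3.46 ± 0.13 with peptide alone (adjusted p = 0.000191) and -3.45 ± 0.28 between deltaP and peptide (adjusted p = 0.0041). The sign of the change against OT-2 turned to -0.06 in the values as deposited.

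Its relative Nr4a3 did respond in the deltaP arrays, less than with peptide alone. It read 6.91, 5.96 and 6.55 with deltaP, 8.89, 9.17 and 10.18 with peptide and 5.39, 5.37 and 5.62 in OT-2. The 3 groups did not overlap, and deltaP lay between the others. Against OT-2 the change was 1.01 ± 0.21 with deltaP (adjusted p = 0.0305) and 3.95 ± 0.30 with peptide alone (adjusted p = 0.00327), and the deltaP arrays were lower than the peptide arrays by 2.94 ± 0.34 (adjusted p = 0.00946). Gadd45b, which codes for a stress-induced regulator of MAP kinase signalling, read 8.28, 7.19 and 7.46 with deltaP, 9.75, 10.13 and 10.24 with peptide and 6.46, 6.59 and 7.14 in OT-2. Its difference of 0.92 ± 0.28 from OT-2 did not pass (adjusted p = 0.0768), while the peptide arrays exceeded OT-2 by 3.31 ± 0.20 (adjusted p = 0.0015). In all 3 genes deltaP replicate 1 had the highest value of its group. The rise of Nr4a3 with deltaP passed under 3 of the 6 single-array omissions.

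**Figure D1:**
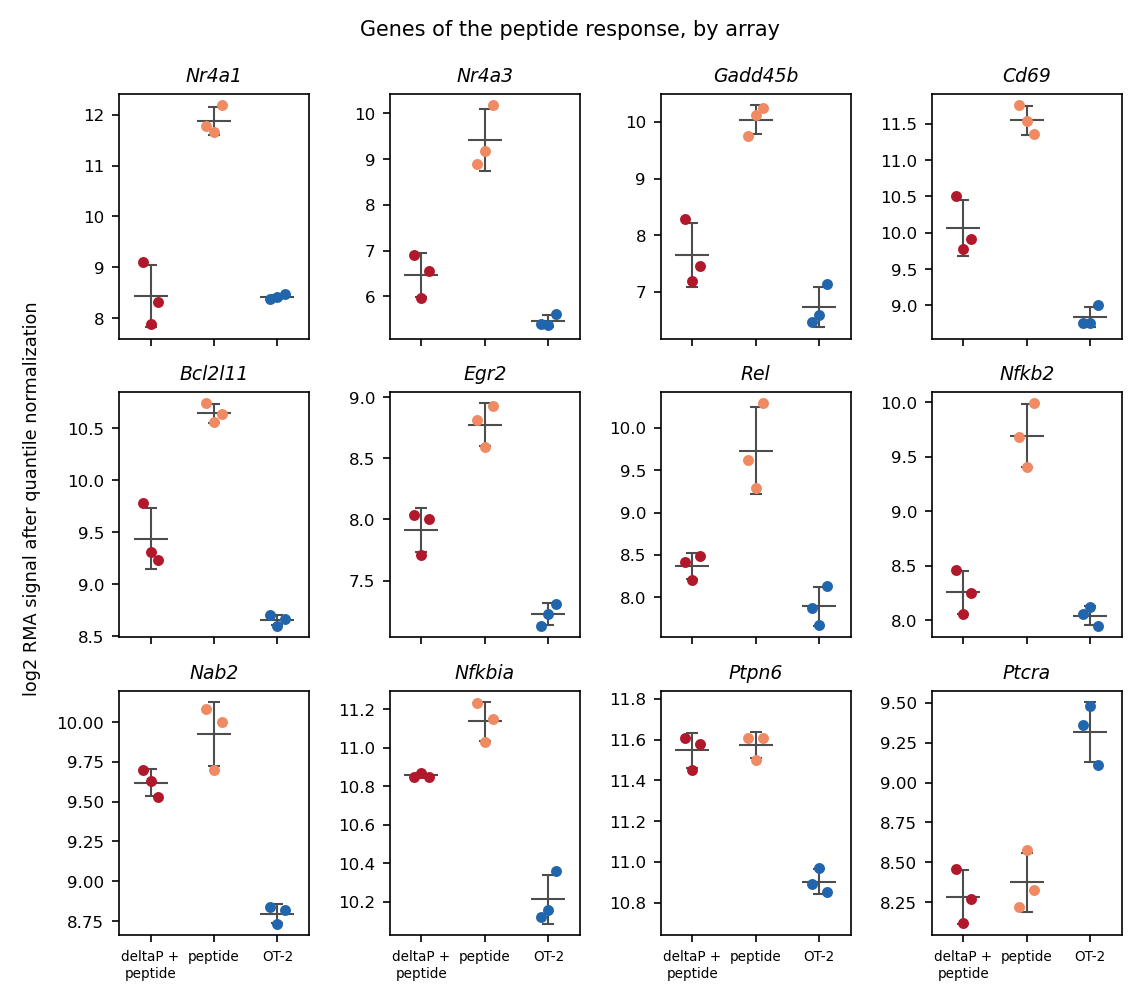
Log2 RMA signal of 12 genes in each array (points), with the mean and SD of the 3 arrays of a group (bars), for deltaP with peptide, peptide alone and OT-2. Nr4a1 in deltaP lies at the OT-2 level, Cd69 and Bcl2l11 lie between the other groups, and Nab2, Nfkbia, Ptpn6 and Ptcra lie on the side of the peptide arrays.

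Cd69, an early activation marker that keeps thymocytes in the thymus, and Bcl2l11, which codes for the pro-apoptotic protein BIM, rose with deltaP to an intermediate level. Cd69 read 10.51, 9.77 and 9.92 with deltaP, 11.76, 11.54 and 11.36 with peptide and 8.76, 8.75 and 9.00 in OT-2. It rose by 1.23 ± 0.18 against OT-2 (adjusted p = 0.0128) and stood 1.49 ± 0.19 below the peptide arrays on the log2 scale, a change of -1.49 (adjusted p = 0.013). Bcl2l11 read 9.78, 9.31 and 9.23 with deltaP, 10.74, 10.56 and 10.64 with peptide and 8.70, 8.60 and 8.67 in OT-2. Its rise was 0.78 ± 0.14 against OT-2 (adjusted p = 0.0202), with 1.99 ± 0.08 for peptide alone (adjusted p = 0.000191), and the groups did not overlap. The rises of Cd69 and Bcl2l11 with deltaP each passed under 4 of the 6 single-array omissions. Bbc3, which codes for the pro-apoptotic protein PUMA, did not pass against OT-2 (-0.22 ± 0.08, adjusted p = 0.129) and was lower in deltaP than in the peptide arrays by -0.69 ± 0.09 on the log2 scale (adjusted p = 0.0164).

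Egr2, a transcription factor induced by receptor signals through the MAP kinase pathway, showed the same order. It read 8.04, 7.71 and 8.0 with deltaP, 8.81, 8.59 and 8.93 with peptide and 7.13, 7.23 and 7.31 in OT-2, with a rise of 0.70 ± 0.10 against OT-2 (adjusted p = 0.0128) and a change of -0.86 ± 0.12 against peptide (adjusted p = 0.0191). Egr1 rose by 0.62 ± 0.13 with deltaP (adjusted p = 0.0281) and did not differ from the peptide arrays at the threshold (-0.27 ± 0.12, adjusted p = 0.245). Nab2, a co-repressor that is induced by EGR factors and limits them, read 9.70, 9.63 and 9.53 with deltaP, 10.08, 9.70 and 10.00 with peptide and 8.84, 8.73 and 8.82 in OT-2. Its rise of 0.83 ± 0.07 (adjusted p = 0.003) stood beside 1.13 ± 0.11 for peptide alone (adjusted p = 0.00546), and it passed with each of the 6 arrays omitted in turn. The difference between deltaP and peptide did not pass for Nab2 (-0.30 ± 0.11, adjusted p = 0.173).

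Of the 20 named immediate-early and nuclear receptor genes, 6 rose and 1 fell with deltaP, with a median change of 0.15, beside -0.01 for all probe sets and -0.05 for all named ones. With peptide alone 14 of the 20 rose and 0 fell, with a median of 0.78. Those that rose with deltaP were Nr4a3, Nab2, Egr2, Egr1, Per1 (0.52 ± 0.11, adjusted p = 0.0292) and Tgif1. The gene that fell was Myc, which drives growth and metabolism. Myc read 8.59, 7.76 and 8.51 with deltaP, 9.26, 9.63 and 10.29 with peptide and 9.70, 9.68 and 9.34 in OT-2, so that all 3 deltaP arrays lay below the other 6. It fell by 1.28 ± 0.21, a change of -1.28 (adjusted p = 0.0176), and was not past the threshold with peptide alone (0.16 ± 0.24, adjusted p = 0.695). Without deltaP replicate 3, OT-2 replicate 1 or OT-2 replicate 2, 1 gene of this list rose and 0 fell, so the fall of Myc did not pass in these fits. Irf4, Irf8, Fosl2 and Fos rose with peptide alone and not with deltaP: Irf4, a factor whose level follows receptor signal strength, changed by -0.36 ± 0.18 with deltaP (adjusted p = 0.224), 1.21 ± 0.27 with peptide (adjusted p = 0.0316) and -1.58 ± 0.29 between deltaP and peptide (adjusted p = 0.0332).

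The NF-kB system comprises the transcription factor's subunits and the inhibitors that it induces. Of 12 named members, 2 rose and 1 fell with deltaP (median change 0.30), where 12.3% of all named probe sets rose and 15.7% fell. With peptide alone 10 of the 12 rose (median 1.09), beside 12.9% of the named probe sets. Between deltaP and peptide 7 of the 12 were lower and 0 higher. In the promoters, 4 of the 9 genes found in the RefSeq promoter table held the kappaB motif (GGG, any 2 bases, TTTCC) on either strand. By windows of 300 bases (250 before to 50 after a start), of which a gene can have several, 6 of their 14 held it, beside 1.63% of all 32851 windows. A match is a description of the letters, not evidence of binding. Stretches with the motif in capitals are shown for the 4 genes because Nfkbia rose with deltaP and the others did not pass (GRCm38.p6, read 5′ to 3′ on the gene's strand).
Nfkbia, chr12:55492647-55492696, minus strand: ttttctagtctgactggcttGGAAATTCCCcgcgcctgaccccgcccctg
Rel, chr11:23771031-23771080, minus strand: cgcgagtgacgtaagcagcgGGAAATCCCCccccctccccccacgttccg
Nfkb2, chr19:46305685-46305734, plus strand: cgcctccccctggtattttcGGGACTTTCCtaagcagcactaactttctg
Tnfaip3, chr10:19015393-19015442, minus strand: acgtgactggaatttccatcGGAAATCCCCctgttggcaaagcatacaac

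Nfkbia, which codes for the inhibitor IkB alpha, read 10.85, 10.87 and 10.85 with deltaP, 11.23, 11.03 and 11.15 with peptide and 10.12, 10.16 and 10.36 in OT-2. It rose by 0.64 ± 0.08 (adjusted p = 0.00939), beside 0.92 ± 0.09 for peptide alone (adjusted p = 0.00669), and deltaP and peptide did not differ at the threshold (-0.28 ± 0.08, adjusted p = 0.11). The 3 other genes whose promoters are printed did not pass with deltaP. Rel, the subunit c-Rel, read 8.41, 8.20 and 8.49 with deltaP, 9.62, 9.29 and 10.29 with peptide and 7.87, 7.67 and 8.13 in OT-2. Its deltaP arrays lay just above OT-2 (0.48 ± 0.13, adjusted p = 0.0549) and below the peptide arrays (-1.37 ± 0.23, adjusted p = 0.0273). Nfkb2, which codes for the p100 subunit, changed by 0.21 ± 0.11 with deltaP (adjusted p = 0.22) and by 1.65 ± 0.14 with peptide alone (adjusted p = 0.00397). Tnfaip3, which codes for the inhibitor A20, changed by 0.25 ± 0.09 (adjusted p = 0.11) and by 1.19 ± 0.09 (adjusted p = 0.00338) in the same comparisons. Nfkb1 was at the OT-2 level with deltaP (-0.02 ± 0.12, adjusted p = 0.91) and rose by 1.26 ± 0.17 with peptide alone (adjusted p = 0.0104). Nfkbid, a nuclear IkB protein, rose in both, by 0.68 ± 0.13 with deltaP (adjusted p = 0.0247) and by 1.95 ± 0.21 with peptide (adjusted p = 0.0074). Traf1, an adaptor of TNF receptors, fell with deltaP, a change of -0.66 ± 0.07 (adjusted p = 0.00639). With each array centred on its median 7 of the 12 rose with deltaP, with dim probe sets left out 6 rose and with a mean-variance trend 4 rose, and 1 fell each time. Without OT-2 replicate 1, OT-2 replicate 2 or deltaP replicate 3, 1 of the 12 rose and 1 fell. The gene that rose in these fits was Nfkbia, so the rise of Nfkbid did not pass in them.

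Of 10 named feedback regulators of MAP kinase signalling, 5 rose and 0 fell with deltaP (median change 0.41), and 4 rose with peptide alone (median 0.26). The members that rose were Dusp6, Dusp4, Dusp2, Spred2 and Rasa2, phosphatases and inhibitors of the pathway. Dusp6, the phosphatase of ERK, read 10.10, 9.87 and 9.78 with deltaP, 9.31, 8.64 and 9.16 with peptide and 8.85, 8.73 and 9.11 in OT-2. All deltaP arrays were above all others. The rise was 1.02 ± 0.12 against OT-2 (adjusted p = 0.0076) and 0.88 ± 0.17 against peptide (adjusted p = 0.0397), whereas peptide alone gave 0.14 ± 0.18 (adjusted p = 0.627). Dusp5 did the reverse, with 0.10 ± 0.09 for deltaP (adjusted p = 0.488), 1.12 ± 0.14 for peptide (adjusted p = 0.00918) and -1.02 ± 0.14 between them (adjusted p = 0.0142). Without OT-2 replicate 1, OT-2 replicate 2 or deltaP replicate 2, 1 of the 10 rose.

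Of 15 named inhibitory receptors and negative tuners of receptor signalling, 6 rose and 1 fell with deltaP (median 0.23), and 8 rose with peptide alone (median 0.52). Without OT-2 replicate 1, OT-2 replicate 2 or deltaP replicate 3, 2 of them rose with deltaP and 0 fell. Ptpn6, which codes for the phosphatase SHP-1, read 11.61, 11.45 and 11.58 with deltaP, 11.61, 11.50 and 11.61 with peptide and 10.89, 10.97 and 10.85 in OT-2. Both injected groups overlapped and lay above OT-2, with rises of 0.64 ± 0.07 (adjusted p = 0.00706) and 0.67 ± 0.07 (adjusted p = 0.0074), and a difference between them of -0.03 ± 0.08 (adjusted p = 0.887). Tigit, an inhibitory receptor, rose by 0.84 ± 0.12 with deltaP (adjusted p = 0.0107) and 0.66 ± 0.10 with peptide (adjusted p = 0.0139). Pdcd1, which codes for PD-1, rose by 0.79 ± 0.14 (adjusted p = 0.0203) and 1.11 ± 0.13 (adjusted p = 0.00901) in the same order. Btla, another inhibitory receptor, went the other way. It read 7.88, 7.29 and 7.24 with deltaP, 9.76, 9.56 and 9.37 with peptide and 8.32, 8.34 and 8.36 in OT-2, a fall with deltaP (-0.87 ± 0.16, adjusted p = 0.0216) and a rise with peptide alone (1.22 ± 0.10, adjusted p = 0.00397).

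Several other genes that peptide alone raised were below OT-2 with deltaP. Gpr183, a receptor for oxysterols that guides lymphocyte migration, read 7.08, 6.62 and 6.98 with deltaP, 9.42, 9.30 and 9.68 with peptide and 7.38, 7.34 and 7.74 in OT-2. It fell by 0.60 ± 0.15 against OT-2, a change of -0.60 (adjusted p = 0.044), which passed under 1 of the 6 single-array omissions, and the change between deltaP and peptide was -2.57 ± 0.14 (adjusted p = 0.00117). Sh3bp2, an adaptor of immune receptor signalling, read 6.79, 6.59 and 6.43 with deltaP, 9.03, 8.64 and 8.96 with peptide and 7.76, 7.82 and 7.95 in OT-2. It changed by -1.24 ± 0.10 with deltaP (adjusted p = 0.00289) and by 1.03 ± 0.11 with peptide alone (adjusted p = 0.00754), with no overlap among the 3 groups. Ndrg1, a stress-response gene, changed by -1.03 ± 0.13 (adjusted p = 0.00939) and 1.08 ± 0.13 (adjusted p = 0.00901), and Hivep3, which codes for a zinc finger factor, by -0.86 ± 0.14 (adjusted p = 0.0159) and 1.26 ± 0.17 (adjusted p = 0.0108). Malt1, the paracaspase that links the receptor to NF-kB, changed by -0.29 ± 0.07 with deltaP (adjusted p = 0.0444), a call that no fit with an array left out kept, and by 0.66 ± 0.12 with peptide (adjusted p = 0.02).

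**Figure D2:**
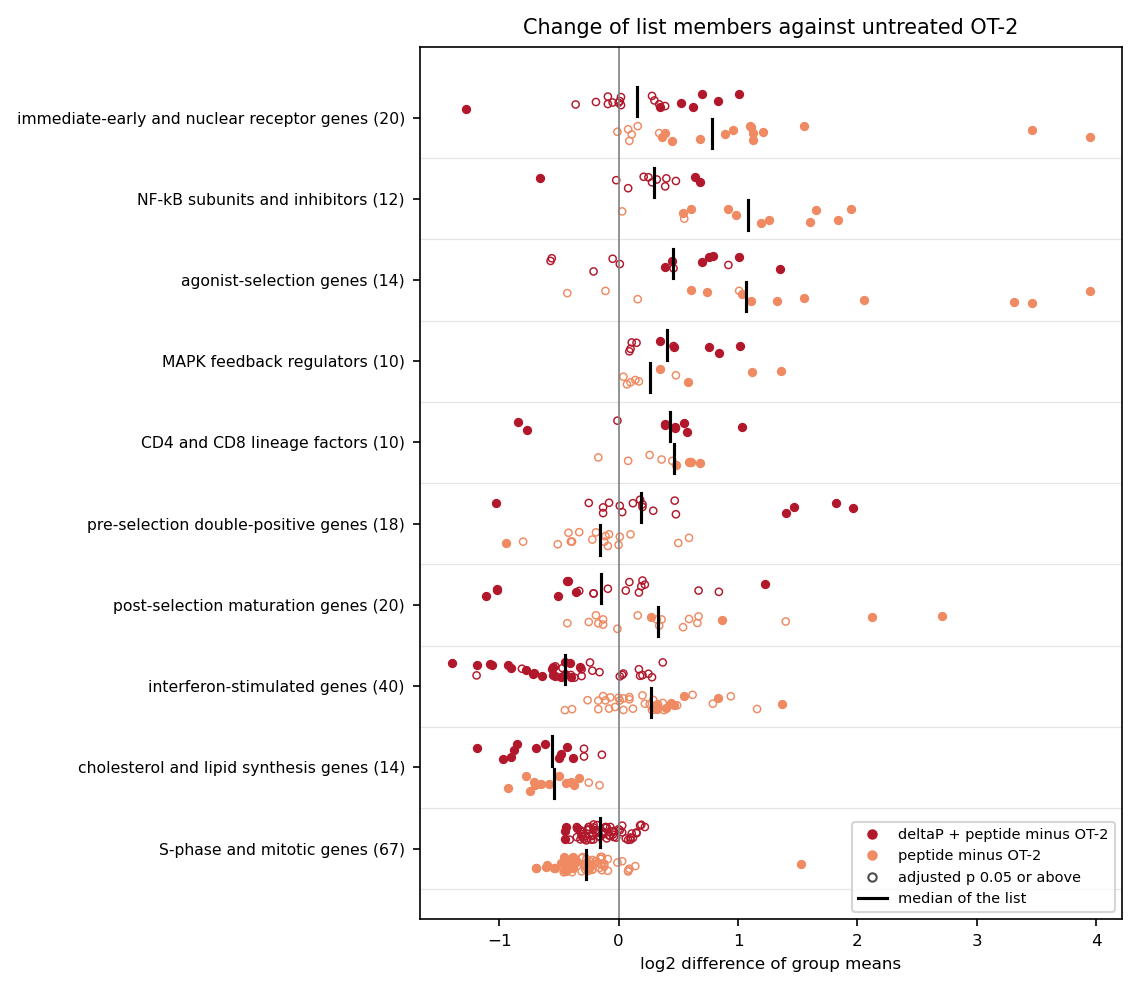
Log2 change against OT-2 of each named member of 10 gene lists (number of members in brackets), for deltaP with peptide (upper row of each list) and peptide alone (lower row). Filled points have an adjusted p under 0.05, black bars are list medians, and both rows use the same 3 OT-2 arrays. Interferon-stimulated genes have a median of -0.45 with deltaP and 0.27 with peptide alone, and the cholesterol list has medians of -0.56 and -0.54.

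Cholesterol and lipid synthesis genes were lower in both injected groups. Of 14 named members, 0 rose and 11 fell with deltaP (median -0.56), and 0 rose and 12 fell with peptide (median -0.54). The deltaP arrays had list medians of -0.50, -0.66 and -0.53 relative to each gene's OT-2 mean, and the peptide arrays -0.54, -0.52 and -0.50. Insig1, the sterol-regulated anchor of SREBP processing, read 8.77, 8.45 and 8.70 with deltaP, 8.87, 8.99 and 8.68 with peptide and 9.56, 9.67 and 9.40 in OT-2. All 6 injected arrays lay below OT-2, and the gene changed by -0.90 ± 0.11 (adjusted p = 0.00755) with deltaP and -0.70 ± 0.11 (adjusted p = 0.0134) with peptide alone. Msmo1, a sterol oxidase, changed by -0.85 ± 0.07 with deltaP (adjusted p = 0.00289) and -0.74 ± 0.08 with peptide (adjusted p = 0.00719). Fdft1, which codes for squalene synthase, changed by -0.62 ± 0.07 with deltaP (adjusted p = 0.00662) and -0.58 ± 0.07 with peptide (adjusted p = 0.00901). Scd2, a fatty acid desaturase, differed from the others, with -0.29 ± 0.08 for deltaP (adjusted p = 0.0635), -0.93 ± 0.11 for peptide (adjusted p = 0.00879) and 0.64 ± 0.11 between them (adjusted p = 0.0328). The list count ranged from 6 without OT-2 replicate 1 or OT-2 replicate 2 to 12 without deltaP replicate 1.

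The sterol-response motif TCACCCCA was found in 1 of the 9 windows of the 9 cholesterol genes in the table, beside 1.56% of all windows. It is printed because Hmgcs1, which codes for a cytosolic enzyme at the start of the pathway, fell in both comparisons, by -0.69 ± 0.09 with deltaP (adjusted p = 0.00861) and by -0.44 ± 0.08 with peptide (adjusted p = 0.0189).
Hmgcs1, chr13:119690194-119690241, plus strand: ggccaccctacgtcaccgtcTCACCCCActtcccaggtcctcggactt

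Interferon-stimulated genes act in antiviral defence. Of 40 named members 0 rose and 20 fell (median -0.45), while with peptide alone 8 rose and 0 fell (median 0.27). By group means 31 of the 40 were lower and 9 were higher with deltaP. Against the peptide arrays 12 were lower and 0 higher, and 15.7% of the named and 4.92% of all probe sets fell with deltaP. List medians relative to the OT-2 mean were -0.30, -0.59 and -0.46 in the deltaP arrays, 0.09, 0.22 and 0.41 in the peptide arrays and 0.05, 0.03 and -0.09 in OT-2. The count depended on single arrays: 1 fell without OT-2 replicate 1, 2 without OT-2 replicate 2, 15 without OT-2 replicate 3, 7 without deltaP replicate 2, 2 without deltaP replicate 3 and 24 without deltaP replicate 1. The median ranged only from -0.40 to -0.52 over these fits, and it was -0.55 in the values as deposited, where 27 fell.

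The interferon-response motif (GAAA, any 2 bases, GAAA) was held by 19 of the 28 list members found in the promoter table, or 21 of their 36 windows, beside 3.44% of all windows. Members that did not fall with deltaP held it too. Among them, relative to the OT-2 mean, Gbp3 read 0.27, 0.1 and 0.48 in the deltaP arrays and Slfn5 0.44, 0.06 and 0.25. The stretches below, with the motif in capitals on either strand, are from 4 of the genes that fell with deltaP. A match again describes the letters only.
Ifit1, chr19:34640784-34640833, plus strand: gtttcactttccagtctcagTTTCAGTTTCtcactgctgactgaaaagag
Isg15, chr4:156200861-156200910, minus strand: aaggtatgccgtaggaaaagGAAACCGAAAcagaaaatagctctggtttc
Bst2, chr8:71537567-71537616, minus strand: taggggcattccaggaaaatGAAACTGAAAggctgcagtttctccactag
Ddx60, chr8:61928048-61928097, plus strand: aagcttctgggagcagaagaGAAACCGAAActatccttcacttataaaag

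Rtp4, an interferon-induced chaperone of receptors, read 8.25, 7.38 and 7.72 with deltaP, 8.74, 9.02 and 9.39 with peptide and 9.24, 9.46 and 8.86 in OT-2. It changed by -1.40 ± 0.23 against OT-2 (adjusted p = 0.0165) and by -1.27 ± 0.23 against peptide (adjusted p = 0.0341). All deltaP arrays lay below the other 6. Ifit1, an inhibitor of viral RNA translation, read 6.78, 6.03 and 5.83 with deltaP, 7.20, 7.18 and 7.94 with peptide and 7.52, 7.56 and 7.13 in OT-2, and fell (-1.19 ± 0.24, adjusted p = 0.0264). Dhx58, which codes for the RNA sensor LGP2, was the member with the smallest adjusted p (-1.06 ± 0.10, adjusted p = 0.00455) and passed with each of the 6 arrays omitted in turn. Ddx60 fell (-1.08 ± 0.17, adjusted p = 0.014), as did Bst2, which codes for tetherin (-0.78 ± 0.15, adjusted p = 0.0263), Irf7 (-0.93 ± 0.16, adjusted p = 0.0186) and Isg15, a ubiquitin-like modifier (-0.40 ± 0.10, adjusted p = 0.0404). Irf1, which receptor and interferon gamma signals induce, rose with peptide alone by 1.37 ± 0.21 (adjusted p = 0.013) and not with deltaP (0.17 ± 0.08, adjusted p = 0.193).

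**Figure D3:**
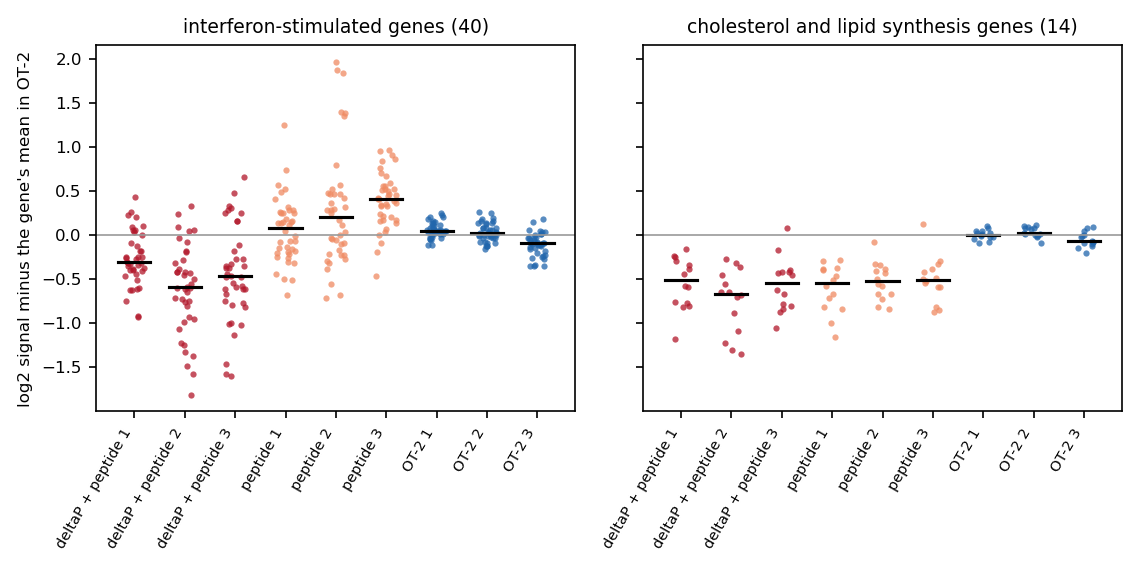
Distance of each named member from its own mean in OT-2, in log2 units, for every array, with black bars at the list median of the array. The interferon list has medians of -0.30 to -0.59 in the deltaP arrays and 0.09 to 0.41 in the peptide arrays, while the cholesterol list lies between -0.50 and -0.66 in all 6 injected arrays.

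The 3 largest rises with deltaP among the genes described, Slc28a2b, Smoc1 and Cacna1e, did not pass with peptide alone. Slc28a2b, a nucleoside transporter gene, read 10.01, 11.01 and 10.13 with deltaP, 8.22, 7.75 and 7.55 with peptide and 7.64, 7.5 and 8.29 in OT-2. It rose by 2.57 ± 0.29, or 5.95-fold (adjusted p = 0.00662), with 0.03 ± 0.24 for peptide alone (adjusted p = 0.942), and its close copy Slc28a2 rose by 1.12 ± 0.21 (adjusted p = 0.0212). The probes of such copies may share signal. Smoc1, which codes for a secreted calcium-binding protein, read 8.96, 9.55 and 9.38 with deltaP, 7.75, 6.92 and 7.66 with peptide and 6.96, 7.07 and 7.99 in OT-2, a rise of 1.96 ± 0.27 (adjusted p = 0.0106). Jup, which codes for plakoglobin, read 9.69, 10.05 and 10.22 with deltaP, 8.56, 7.75 and 8.44 with peptide and 8.46, 8.48 and 8.80 in OT-2. It rose by 1.40 ± 0.15 against OT-2 (adjusted p = 0.00532) and by 1.74 ± 0.22 against peptide (adjusted p = 0.0128). P3h4, a collagen modification gene, rose by 1.23 ± 0.10 (adjusted p = 0.00289) and by 1.69 ± 0.10 against peptide (adjusted p = 0.00117). Rbm24, an RNA-binding protein gene, rose by 1.30 ± 0.13 (adjusted p = 0.00517), and Sema7a, a semaphorin gene, by 1.01 ± 0.13 (adjusted p = 0.0092). In Slc28a2b, Smoc1, Jup, P3h4, Rbm24 and Sema7a the deltaP arrays lay above all 6 others. Cacna1e, a calcium channel gene, rose by 1.82 ± 0.27 (adjusted p = 0.0128), under 3 of the 6 single-array omissions.

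Smoc1, Jup, Cacna1e and Mir181a-1 are also the 4 members that rose among 18 named genes of the pre-selection stage, with 1 that fell (median change 0.19, and 0.02 in the values as deposited), and were put on that list with earlier results known. Without deltaP replicate 3, 2 of the list rose, and without deltaP replicate 1, 6 rose. Ptcra, which codes for the pre-T cell receptor alpha chain, was the member that fell. It read 8.46, 8.12 and 8.27 with deltaP, 8.22, 8.58 and 8.33 with peptide and 9.36, 9.48 and 9.11 in OT-2, with changes of -1.03 ± 0.12 (adjusted p = 0.00722) and -0.94 ± 0.13 (adjusted p = 0.0107) and -0.09 ± 0.12 between deltaP and peptide (adjusted p = 0.71). Rag1, which codes for the recombinase, did not pass (0.18 ± 0.18, adjusted p = 0.53), nor did Cd4 (0.47 ± 0.18, adjusted p = 0.138) or Cd8b1 (0.20 ± 0.12, adjusted p = 0.293). The probe set of Mir181a-1 read 7.13, 7.63 and 7.56 with deltaP, 6.66, 6.04 and 6.96 with peptide and 6.02, 5.74 and 6.14 in OT-2. It rose by 1.47 ± 0.15 (adjusted p = 0.00517), with 0.59 ± 0.22 for peptide alone (adjusted p = 0.122). The array reads the RNA of this locus (chr1:137966468-137966490 for the mature 5p strand, GRCm38.p6, plus strand), and no mature miRNA was measured. The miRNA is known to lower the threshold of receptor signalling in thymocytes, and its RefSeq sequence is given because it pairs with other messages through its seed, bases 2 to 8, in capitals.
mmu-miR-181a-5p: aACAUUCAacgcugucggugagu

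**Figure D4:**
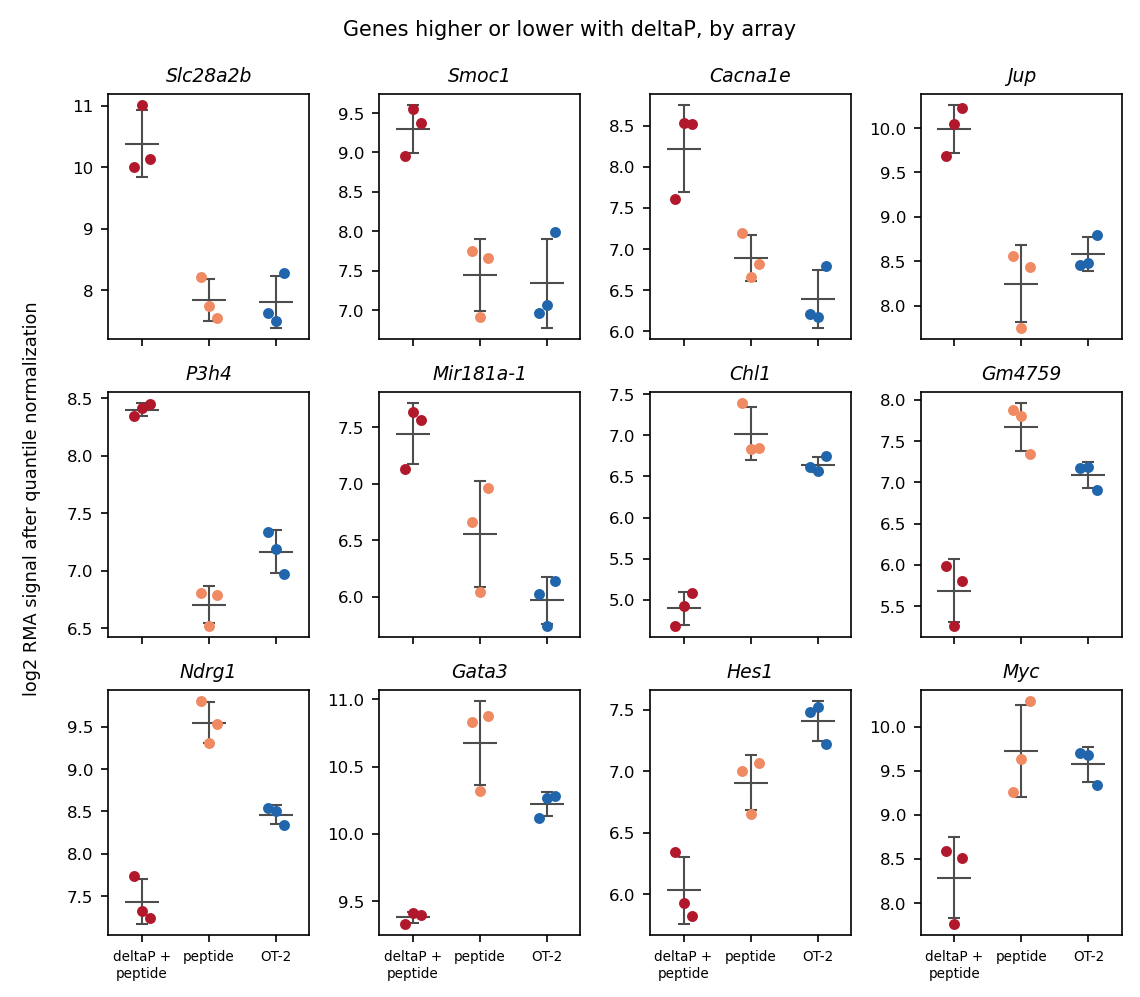
Log2 RMA signal of 12 genes in each array (points), with the mean and SD of the 3 arrays of a group (bars), for deltaP with peptide, peptide alone and OT-2. The deltaP arrays lie above all others for Slc28a2b, Smoc1, Cacna1e, Jup, P3h4 and Mir181a-1, and below all others for Chl1, Gm4759, Ndrg1, Gata3, Hes1 and Myc.

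Chl1, which codes for a neural cell adhesion molecule, had the largest fall among the genes described. It read 4.68, 4.93 and 5.08 with deltaP, 7.39, 6.83 and 6.84 with peptide and 6.61, 6.57 and 6.75 in OT-2, a change of -1.75 ± 0.11 (adjusted p = 0.00104) and of -2.13 ± 0.17 against peptide (adjusted p = 0.00387). Gm4759, annotated as a predicted gene, read 5.99, 5.26 and 5.81 with deltaP, 7.87, 7.80 and 7.34 with peptide and 7.17, 7.19 and 6.91 in OT-2, and fell (-1.40 ± 0.18, adjusted p = 0.00939). The deltaP arrays lay below all others for both genes. Other genes that fell were Ampd1, the AMP deaminase (-1.34 ± 0.12, adjusted p = 0.003), Adssl1, an adenylosuccinate synthase (-1.44 ± 0.20, adjusted p = 0.011), and Kmo, the kynurenine monooxygenase (-1.38 ± 0.09, adjusted p = 0.00145). P2ry14, a receptor for UDP-glucose, changed by -1.32 ± 0.17 (adjusted p = 0.00939), and Gfra1, a receptor subunit for glial cell line-derived neurotrophic factor, by -1.29 ± 0.16 (adjusted p = 0.0076).

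Hes1, the target of Notch signalling that acts before the double-positive stage, read 6.34, 5.93 and 5.82 with deltaP, 7.00, 6.65 and 7.07 with peptide and 7.48, 7.52 and 7.22 in OT-2. The 3 groups did not overlap and deltaP was lowest, with -1.38 ± 0.14 against OT-2 (adjusted p = 0.00525), beside -0.50 ± 0.13 for peptide alone (adjusted p = 0.0491). Dtx1, another Notch target, fell as well, and 2 of the 5 named Notch pathway genes fell and 0 rose (median -0.53). Without OT-2 replicate 1, OT-2 replicate 2 or deltaP replicate 3, 1 of the 5 fell. Of 6 named markers of the double-negative stage 4 fell, with list medians of -0.79, -1.17 and -0.65 in the deltaP arrays, -0.44, -0.42 and 0.12 in the peptide arrays and 0.06, 0.13 and -0.20 in OT-2. These markers are Hes1, Ptcra, Dtx1 and Gzma, so the counts overlap, and 2 of the 6 fell without OT-2 replicate 1 or OT-2 replicate 2. In whole-population RNA, fewer cells of a type and less RNA per cell cannot be told apart.

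Factors of CD4 and CD8 lineage choice moved in both directions. Of 10 named members 7 rose and 2 fell with deltaP (median 0.43), and 5 rose with peptide alone (median 0.47). Gata3, which favours the CD4 lineage, read 9.33, 9.41 and 9.40 with deltaP, 10.83, 10.32 and 10.88 with peptide and 10.12, 10.27 and 10.28 in OT-2. It fell with deltaP (-0.84 ± 0.07, adjusted p = 0.003), and was not past the threshold with peptide (0.45 ± 0.15, adjusted p = 0.0862). Zbtb7b, the gene of the CD4 lineage regulator ThPOK, fell as well (-0.77 ± 0.11, adjusted p = 0.0109). Ikzf3, which codes for Aiolos, read 10.46, 10.64 and 10.85 with deltaP, 10.36, 10.22 and 10.07 with peptide and 9.47, 9.64 and 9.75 in OT-2, a rise of 1.03 ± 0.12 (adjusted p = 0.0066). Tox, Myb, Lef1, Ikzf1, Ikzf2 and Patz1 were the others that rose, by 0.39 to 0.57. The count of rises was 1 without OT-2 replicate 1, 2 without OT-2 replicate 2, 3 without deltaP replicate 3 and 4 without deltaP replicate 2, and the falls of Gata3 and Zbtb7b passed in all 6 such fits.

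Genes that mark maturation after selection did not rise as a group with deltaP. Of 20 named members 1 rose and 7 fell (median -0.15), and with peptide alone 4 rose and 0 fell (median 0.33). The gene that rose was Cd69. Ccr4, a chemokine receptor that appears on signalled thymocytes, read 9.08, 8.91 and 8.98 with deltaP, 11.22, 10.11 and 10.67 with peptide and 9.86, 9.93 and 10.24 in OT-2. It fell (-1.02 ± 0.11, adjusted p = 0.00532) and was lower than in the peptide arrays (-1.68 ± 0.24, adjusted p = 0.0184). Ms4a4b and Ms4a6b, membrane proteins of mature T cells, changed by -1.02 ± 0.08 (adjusted p = 0.00289) and -1.11 ± 0.08 (adjusted p = 0.00197), and H2-Q2, Ly6c1 and Ly6c2 were among the other members that fell. Without OT-2 replicate 1 or OT-2 replicate 2, 4 fell and 0 rose. Of 14 named agonist-selection genes, which mark cells diverted by strong signals, 7 rose and 0 fell with deltaP (median 0.46), and 10 rose with peptide (median 1.07). Without OT-2 replicate 1 or OT-2 replicate 2, 0 of the 14 rose with deltaP, and 1 rose without deltaP replicate 3. Icos, a costimulatory receptor on that list, rose by 1.35 ± 0.22 with deltaP (adjusted p = 0.0168), under 2 of the 6 single-array omissions.

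Among cytokine receptors 3 of 13 rose and 2 fell, where 12.3% of the named probe sets rose and 15.7% fell. The rises numbered 1 without OT-2 replicate 1, OT-2 replicate 2, deltaP replicate 2 or deltaP replicate 3, and 1 with the replicate number as a block. Il21r rose (0.75 ± 0.08, adjusted p = 0.00525) and Il17rb fell (-0.73 ± 0.08, adjusted p = 0.00598), and Il17rb was lower than in the peptide arrays as well (-1.02 ± 0.09, adjusted p = 0.00508). Of 67 named genes of S phase and mitosis, 0 rose and 4 fell with deltaP (median -0.16), where 15.7% of the named probe sets fell. With peptide alone 1 rose and 19 fell (median -0.27), where 14.7% of the named probe sets fell. Mcm5, Prim1 and Ccne2, which act in DNA replication or the entry into it, were among those that fell with deltaP. By group means 52 of the 67 were lower with deltaP, beside 1178 of the 2121 named probe sets. Over all 67, in either direction, the deltaP and OT-2 arrays did not overlap for 33, beside 53.8% of the named probe sets. The falls numbered 0 without OT-2 replicate 1, OT-2 replicate 2, deltaP replicate 2 or deltaP replicate 3, 1 without OT-2 replicate 3, and 12 without deltaP replicate 1 or in the values as deposited. Of 8 named survival genes 3 rose with deltaP and 4 with peptide: Bcl2, which rose by 0.87 with peptide alone, read 0.22 higher with deltaP without passing. The survival genes that rose with deltaP numbered 0 without OT-2 replicate 1, OT-2 replicate 2, deltaP replicate 2 or deltaP replicate 3, and 1 without either other array or in the values as deposited.

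Of the 5 named class IIa deacetylases and MEF2 partners, 1 rose and 1 fell with deltaP, and 0 did either without OT-2 replicate 1, OT-2 replicate 2 or deltaP replicate 3. The Hdac7 probe set, which may read the transgene as well as the endogenous gene, read 10.19, 10.38 and 10.60 with deltaP, 10.57, 10.37 and 11.03 with peptide and 10.54, 10.61 and 10.53 in OT-2. The groups overlapped, with a change of -0.17 ± 0.10 (adjusted p = 0.318), so the array values do not show a higher Hdac7 signal in the deltaP arrays. Hdac5, a deacetylase of the same class, read 7.77, 7.91 and 7.79 with deltaP, 8.44, 8.36 and 8.41 with peptide and 8.39, 8.25 and 8.20 in OT-2, and fell (-0.45 ± 0.08, adjusted p = 0.0202). Prkd2, a kinase that phosphorylates class IIa deacetylases, rose by 0.48 ± 0.08 (adjusted p = 0.0166), and Mef2d (0.48 ± 0.15, adjusted p = 0.077) and Mef2a (0.03 ± 0.10, adjusted p = 0.848, with the sign turned in the values as deposited) did not pass.

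The genes with the largest changes between deltaP with peptide and OT-2 were set beside the comparison of arrays titled HDAC7 knockout with wild type. It shares no array with the comparison of deltaP and OT-2. In HDAC7 knockout against wild-type arrays 1 to 3, 3 arrays each, 232 probe sets passed (0.802%), 0.439% higher and 0.363% lower, and of the 2121 named genes 107 rose (5.04%) and 96 fell (4.53%). The Hdac7 probe set itself changed by -0.34 (adjusted p = 0.664), and whether its probes lie outside the deleted part is not known here. Of the 12 largest rises with deltaP, 5 fell and 0 rose in the knockout (median -0.72). Of the 12 largest falls with deltaP, 8 rose and 0 fell (median 1.33). Jup changed by 1.40 with deltaP and by -2.33 in the knockout (adjusted p = 0.00171), Smoc1 by 1.96 and -2.14 (adjusted p = 0.00202), Slc28a2b by 2.57 and -1.71 (adjusted p = 0.00446), and Cacna1e by 1.82 and -2.47 (adjusted p = 0.0027). In the other direction, Chl1 changed by -1.75 with deltaP and by 2.34 in the knockout (adjusted p = 0.0138), Gm4759 by -1.40 and 2.71 (adjusted p = 0.000449), and Dap, a gene linked to programmed cell death, by -1.30 and 2.15 (adjusted p = 0.000511). Genes were named because the authors had listed them as changed, in the knockout among other comparisons, so this choice favours genes that moved in both. Ephx1, Hes1, Myc and P2ry14 passed between deltaP and OT-2 and not in the knockout. Ephx1, 1 of the 12 rises, rose with peptide alone too (1.26, adjusted p = 0.0119) and did not pass between deltaP and peptide (0.25, adjusted p = 0.476).

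Markers of other cells gave few named genes. Of 7 named double-positive markers Ptcra was the member that passed. Cd79b, the B cell marker with a name here, read 8.59, 8.49 and 8.33 with deltaP, 8.54, 8.74 and 8.51 with peptide and 9.05, 9.09 and 9.02 in OT-2, and fell (-0.58 ± 0.08, adjusted p = 0.011). It also fell with peptide alone (-0.46 ± 0.08, adjusted p = 0.0198). Between wild-type arrays 4 to 6 and 1 to 3, which share a label, it differed by 0.57 ± 0.11 (adjusted p = 0.00559). Cd79b was not alone in this. Cd69 (0.74 ± 0.21, adjusted p = 0.0304), Dusp6 (0.51 ± 0.10, adjusted p = 0.00574) and Cacna1e (-0.91 ± 0.18, adjusted p = 0.00765) passed there as well. Bcl2l11 (-0.16 ± 0.09, adjusted p = 0.17) and Chl1 (0.28 ± 0.14, adjusted p = 0.169) did not. These genes are examples from both sides. Gzma fell (-0.66 ± 0.11, adjusted p = 0.0161) and Prf1 rose (0.42 ± 0.09, adjusted p = 0.0365), both markers of cytotoxic cells. The myeloid markers Lyz1 and Itgam and the stromal marker Vim did not pass, with -0.01, 0.02 and 0.05, whose signs turned under another scaling, and of the red cell markers 0 had a name. The part of such cells in the results was not tested.

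The largest differences between deltaP and OT-2 were in 5 probe sets for which no gene name was available, each with a change over 4 on the log2 scale. Probe set 10606178 read 4.76, 4.78 and 5.07 with deltaP, 11.80, 4.99 and 5.14 with peptide and 11.03, 11.14 and 11.30 in OT-2. Probe set 10608138 read 10.55, 10.59 and 10.46 with deltaP, 4.80, 10.56 and 10.19 with peptide and 4.94, 4.88 and 4.92 in OT-2. Probe sets 10607972, 10608001 and 10608107 followed the pattern of 10608138, with changes of 4.38, 6.22 and 5.42. All 3 deltaP arrays were at one level, all 3 OT-2 arrays at the other, and the peptide arrays were split, with replicate 1 like OT-2 and replicates 2 and 3 like deltaP. The labels do not give the sex of the mice, and whether these probe sets belong to sex-linked genes, or the groups differ in sex, was not tested. Their part in the other differences was not tested either.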

How the data were processed

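Sorted double-positive thymocytes were profiled with Affymetrix Mouse Gene 1.0 ST arrays. Values are log2 RMA signals computed by the authors, with Affymetrix Expression Console named for some arrays, per the submitters' processing notes; their versions were not stated there. The authors deposited tables of genes with fold changes, of which only the gene names were used. Groups came from sample titles. Of 35556 deposited rows, 6612 with IDs below 10344614 were left out. RefSeq gene tables named 2121 of the 28921 probe sets tested, and 26800 had no gene name here.

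The 9 OT-2 arrays were quantile-normalized, and each comparison of 3 arrays with 3 was fitted with limma 3.58.1 in R 4.3.3 (lmFit, eBayes, two-sided, Benjamini-Hochberg, threshold 0.05). The number of arrays limits the precision. On simulated data for deltaP against OT-2, over 28921 probe sets, 100 of 100 changes of 1 and 100 of 100 of 2 on the log2 scale were recovered, with 17 false calls. The simulation drew independent normal noise of equal spread in both groups. Changes were put only in probe sets above the median, and no block difference was included. It therefore shows that the fit runs and does not give the recovery or the false calls of the real data. The knockout comparison used deposited values.

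Genes were named by rule: class IIa deacetylase genes, the 12 largest rises and falls, up to 4 called members of each list, the 10 largest rises and 6 largest falls with peptide alone, and the 8 largest in each direction between deltaP and peptide, where the arrays did not overlap and the sign held under other scalings. Other list members are named where a count is broken down, and were chosen after their values were seen. The members and lists were chosen with earlier results of these data known. Alternatives were other scalings, fits and filters and leaving out each array. The exclusion of probe sets with equal values and the knockout comparison were chosen after seeing the data. The other arrays of the series were not used here beyond these comparisons.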

Additional observations from a re-analysis of the deposited data

Results flagged for a closer look

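In the 5 unnamed probe sets with the largest differences between deltaP and OT-2, wild-type replicate 3 lay far from the other 5 wild-type arrays. Its deposited log2 signal was 5.41 in probe set 10606178, 8.33 in 10607972, 8.96 in 10608001, 8.14 in 10608107 and 9.35 in 10608138. It was not alone: HDAC7 knockout replicate 3 stood apart from knockout replicates 1 and 2 in all 5, with 5.49, 8.20, 8.93, 8.21 and 9.38 in the same order. Replicate 2 of the HDAC7-VP16 arrays, another group of the series, stood apart from its group in 4 of them, with 6.74 in 10607972, 7.10 in 10608001, 6.20 in 10608107 and 8.52 in 10608138, and the peptide arrays were split as the report gives. The cut-off used to flag such gaps is passed by about 1 in 20 groups by chance. That is the rate at the cut-off for a single measure, not at the gaps seen. It says nothing of 5 probe sets switching together in the same arrays. The cause was not tested.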

How the results depend on the processing

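The number of calls moved with the scaling and with single arrays. In the values as deposited 5489 probe sets passed between deltaP and OT-2 (2418 of them shared with the 2842 reported), 5629 between peptide and OT-2, 4348 between deltaP and peptide and 16468 between the wild-type sets. With each array centred, 6812 passed between peptide and OT-2 and 4650 between deltaP and peptide. With probe sets above the median only, the counts were 1817 for peptide against OT-2, 303 for deltaP against peptide and 6730 for the wild-type sets. With all 9 arrays in 1 fit, 2103 passed between deltaP and peptide, and without probe sets of equal values, chosen after seeing the data, 2333 passed between peptide and OT-2. In their deviations from the group means, same-numbered deltaP and OT-2 arrays correlated at -0.01 to 0.2. Arrays with different numbers correlated at -0.27 to 0.19. With so few arrays per group, these values cannot show whether the numbers pair samples. With the replicate block the calls were 2378 for deltaP against OT-2, 1829 for peptide against OT-2 and 215 for deltaP against peptide. Leaving out 1 array gave 341 to 3005 calls for deltaP against OT-2, 274 to 3057 for peptide against OT-2, 70 to 511 for deltaP against peptide, 6740 to 10631 for the wild-type sets and 107 to 155 for the knockout. Such fits have fewer samples; otherwise the cause was not tested. Without OT-2 replicate 1, 59 gene values lost their call and 64 kept their side of the threshold. Signs turned in changes that did not pass: in the values as deposited Itgam was -0.10, Mef2a -0.03, Nr4a1 -0.06 and Vim -0.02, and after centring Lyz1 was 0.0 and Ptcra between deltaP and peptide 0.11. With 1 array left out, Itgam ranged from -0.02 to 0.08, Lyz1 from -0.16 to 0.15, Mef2a from -0.03 to 0.12, Nr4a1 from -0.32 to 0.28, and Ptcra between deltaP and peptide from -0.18 to 0.01.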
